A study of Mus musculus with 9 samples.

Results

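Meiotic recombination starts when SPO11 cuts both strands of the DNA in early prophase, and the breaks are then trimmed, coated with recombinases and repaired on the homologous chromosome, some of them as crossovers. The genes described here are 8 that act at successive steps of this route: Mei1 in break formation, Exo1, Blm and Brca2 in the trimming and repair of break ends, Msh4, Mlh3 and Ccnb1ip1 in crossover formation, and Meioc in entry into the meiotic programme. In the mouse testis they work in spermatocytes, which first appear in the second week of life and reach mid prophase, the pachytene stage, at about the older age studied here. The genes were chosen by name and function: every probe whose only symbol in the platform annotation was one of the 8 was taken, and probes of a gene were averaged. This gave 9 probes, 1 for each gene and 2 for Exo1, among 16128 probes and 7117 named genes on the arrays.

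Total RNA of whole testes was compared on 9 spotted cDNA arrays, each with 1 Spo11-/- and 1 wild-type sample labelled with different dyes. At 15 days of age there were 4 arrays, with the knockout in Cy3 on all of them. At 12 days there were 5, with the knockout in Cy5 on replicates 1, 4 and 5 and in Cy3 on replicates 2 and 3. The design text describes mouse pairs of a litter, and the strain is not stated. Each array was counted as 1 replicate, although 5 arrays at 12 days exceed the quadruplicate described, so that p-values measure the spread between arrays. Each value is a log ratio of the 2 dyes, read here as log2, and a ratio gives no level of a gene and no check that a marker of testis is present. In RNA of a whole organ, fewer cells of a type and less RNA per cell cannot be told apart. Spo11 itself had no annotated probe, and the knockout could not be seen in the values.

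Which sample is on top in the ratios is unsettled, and every sign given here depends on it. The 4 arrays at 15 days correlated with each other across probes (r = 0.38 to 0.60). With the 12-day arrays of the same dye orientation they correlated below 0, at r = -0.38 to -0.33 with replicate 3 and -0.25 to -0.11 with replicate 2. With the 12-day arrays of the other orientation r was -0.23 to 0.03. Among the 12-day arrays themselves it was -0.13 to 0.45 for pairs of the same orientation and 0.0044 to 0.29 for pairs of opposite orientation. Values at 15 days are therefore given with the sign as deposited. Read as Cy5 over Cy3, from the dyes in the labels, values below 0 mean more RNA in the knockout. Read with the knockout always on top, they mean less. For 12 days, single arrays keep the deposited sign, and fitted ratios are turned to put the knockout on top, taking Cy5 over Cy3 as the deposited ratio. This turning is assumed and not shown, since no pair of 12-day arrays of opposite orientation correlated below 0.

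Upstream sequences of 3 of the genes are shown because these 3 had the largest ratios at 15 days, Mei1 on one side of 0 and Brca2 and Ccnb1ip1 on the other. They come from RefSeq (build GRCm38.p6), run in the direction of transcription, and hold 250 bases before and 50 bases after an annotated transcript start. The windows are chr15:82082226-82082525 on the plus strand for Mei1, chr5:150522371-150522670 on the plus strand for Brca2 and chr14:50795679-50795978 on the minus strand for Ccnb1ip1. Capitals mark the match to a searched motif.
Mei1: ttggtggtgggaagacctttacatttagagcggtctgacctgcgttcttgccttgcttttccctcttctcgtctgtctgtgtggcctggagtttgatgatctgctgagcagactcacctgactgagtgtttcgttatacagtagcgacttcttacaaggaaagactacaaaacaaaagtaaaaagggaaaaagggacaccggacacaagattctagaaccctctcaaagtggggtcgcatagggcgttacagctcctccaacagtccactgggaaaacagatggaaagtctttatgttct
Brca2: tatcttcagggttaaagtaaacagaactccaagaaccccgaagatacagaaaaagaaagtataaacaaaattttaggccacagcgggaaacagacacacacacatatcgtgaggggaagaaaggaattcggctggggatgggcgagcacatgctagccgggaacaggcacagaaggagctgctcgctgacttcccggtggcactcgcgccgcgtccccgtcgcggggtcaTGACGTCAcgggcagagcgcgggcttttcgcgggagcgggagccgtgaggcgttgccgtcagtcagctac
Ccnb1ip1: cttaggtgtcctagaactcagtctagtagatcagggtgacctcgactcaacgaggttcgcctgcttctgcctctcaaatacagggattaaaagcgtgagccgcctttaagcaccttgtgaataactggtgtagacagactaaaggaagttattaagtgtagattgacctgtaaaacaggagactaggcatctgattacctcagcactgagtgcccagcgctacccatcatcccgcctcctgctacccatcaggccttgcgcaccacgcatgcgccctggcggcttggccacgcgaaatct

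Entries existed for 7 of the 8 genes, 8 windows in all, with 2 overlapping windows for Mlh3. The only match was a cyclic AMP response element, TGACGTCA, that began 20 bases before the start of Brca2, a motif held by 1.79% of all 32851 windows. The motif of STRA8-bound promoters, CNCCTCAG (7.94% of all windows on either strand), a form of the MYB site, AACNGTT (4.45%), an RFX site, GTTGCCA (4.38%), and an E2F site, TTTGGCGC (0.514%), matched none of the 8 windows, which says only that these letters are not there. The windows differed in base composition. That of Brca2 had 25 CpG pairs and 56.7% G and C, that of Ccnb1ip1 13 and 52.0%, and that of Mei1 8 and 46.7%, against medians of 7 CpG pairs and 52.7% over all windows. The most CpG-rich of the members' windows were those of Blm (32) and Meioc (28), and that of Msh4 had the fewest (6).

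At 15 days 4 of the 8 genes differed from 0, in both directions. Mei1 and Exo1 lay above 0 and Brca2 and Ccnb1ip1 below it, while Blm, Msh4, Mlh3 and Meioc did not pass (limma, Benjamini-Hochberg adjusted p under 0.05 over 12198 features). All 8 had values on all 4 arrays. Of all features 12.4% passed, 7.05% above and 5.37% below 0. The median of the 8 log2 ratios was -0.14, against 0.02 over all features, and the median of their sizes was 0.40, against 0.17. The sign was the same on all 4 arrays for 5 of the 8, namely Mei1, Exo1, Brca2, Ccnb1ip1 and Blm, and for 38.1% of all features.

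**Figure D1:**
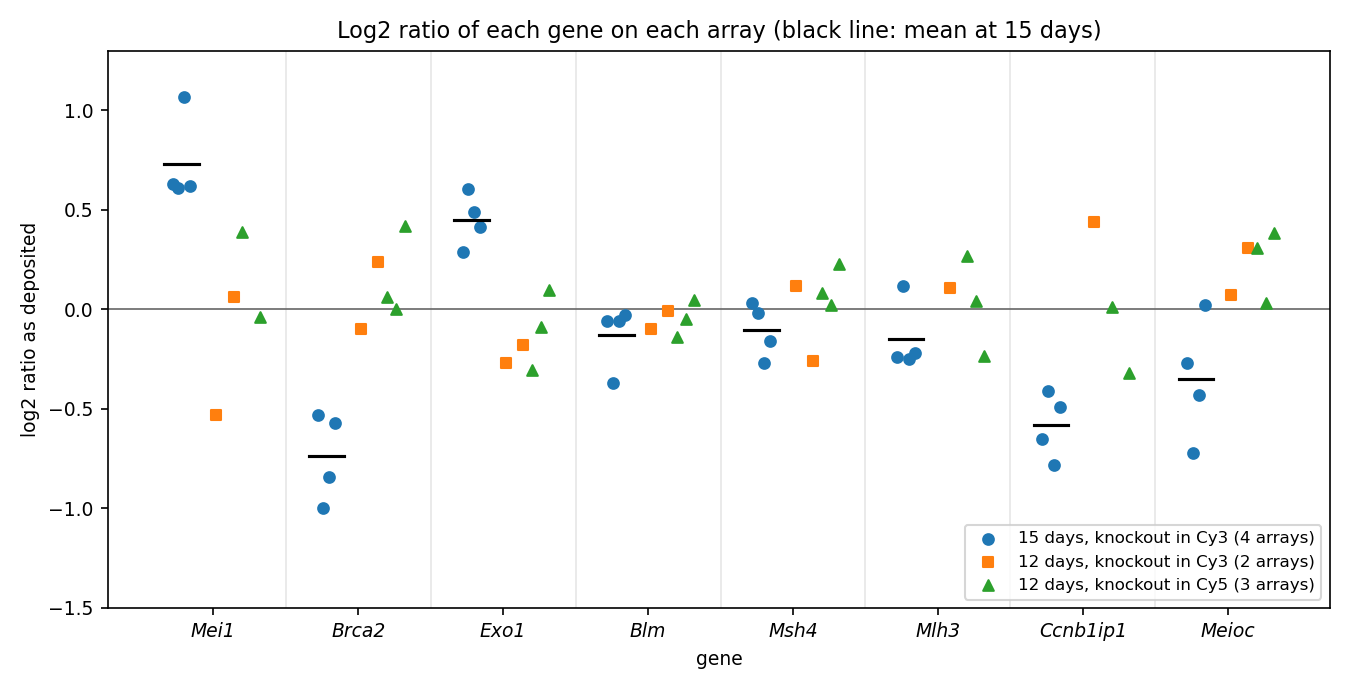
Log2 ratio as deposited (vertical axis) of each of the 8 genes (horizontal axis) on every array with a value; circles are the 4 arrays at 15 days with their mean as a black line, squares the 2 arrays at 12 days with the knockout in Cy3 and triangles the 3 with the knockout in Cy5. At 15 days Mei1 (0.61 to 1.07) and Exo1 (0.29 to 0.605) lie above 0 and Brca2 (-1.0 to -0.53) and Ccnb1ip1 (-0.78 to -0.41) below it.

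Mei1 encodes a protein without which meiotic breaks are not made. Its log2 ratios at 15 days were 0.63, 0.61, 1.07 and 0.62 on replicates 1 to 4. Replicates 1, 2 and 4 were almost level and replicate 3 stood above them, and no array came near 0. The mean was 0.73 ± 0.23 (SD, n = 4), a 1.66-fold ratio (SE 0.11, limma adjusted p = 0.0072), and 98.3% of features lay lower. Without replicate 3 it was 0.62 and still passed. At 12 days the values as deposited were 0.39 and -0.04 on replicates 1 and 4, with the knockout in Cy5, and -0.53 and 0.06 on replicates 2 and 3, with the knockout in Cy3, with no value on replicate 5. These arrays lay on either side of 0 and all of them below the 15-day arrays. The fitted ratio was 0.21 (95% interval -0.15 to 0.56, adjusted p = 1.0), and it ran from 0.06 without replicate 2 to 0.35 without replicate 3.

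Exo1, an exonuclease that trims break ends and also acts in crossover formation, was the one member with 2 probes, which lie 53 spots apart. The first read 0.33, 0.66, 0.48 and 0.41 at 15 days and the second 0.25, 0.55, 0.50 and 0.42. The probes thus differed by at most 0.11 on any of these arrays and ranked the arrays alike at both ends, with replicate 1 lowest and replicate 2 highest. Their average was 0.45 ± 0.13 (SD, n = 4), a 1.37-fold ratio (SE 0.10, limma adjusted p = 0.026). This call was lost with more arrays left out than the other 3. It did not pass without replicate 2 (0.40, adjusted p = 0.097), replicate 3 (0.44, 0.088) or replicate 4 (0.46, 0.060), and the ratio was 0.22 (adjusted p = 0.086) once each array's local background of ratios, the median over 100 spots before and 100 after the probe, was subtracted. At 53 spots apart the 2 probes share much of that local background, so their likeness is no independent check.

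At 12 days the Exo1 probes were further apart, by up to 0.44. The first lay below 0 on all 5 arrays (-0.48, -0.38, -0.22, -0.31 and -0.064 on replicates 1 to 5) whichever dye the knockout carried. The second read -0.13, -0.16, -0.14, 0.13 and 0.263. The first probe therefore did not follow the orientation of the dyes. The fitted knockout ratio of the average was 0.06 (95% interval -0.16 to 0.29, limma adjusted p = 1.0), and the dye coefficient, the part that does not turn with the orientation, was -0.16 (-0.38 to 0.06). That coefficient has the opposite sign to the 15-day ratio as deposited, but what this means depends on the unsettled direction of that ratio. With a dye term in a fit of both ages, the 15-day ratio of 0.45 became 0.61 when read by the dyes in the labels. It became 0.29 when read with the knockout on top, both given in the deposited sign. The part of the dye in the 15-day ratio was not tested.

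Brca2, which acts in homologous repair and binds the meiotic recombinase DMC1, read -0.53, -1.0, -0.84 and -0.57 at 15 days. Replicates 2 and 3 were lower than replicates 1 and 4, and all 4 were well below 0. The mean was -0.735 ± 0.22 (SD, n = 4), a 1.66-fold ratio of the same size as that of Mei1 and opposite in sign (SE 0.11, limma adjusted p = 0.0069), and only 0.984% of features lay lower. Leaving out any 1 array gave -0.80 to -0.65, each past the threshold. The 12-day values were 0.06, 0.00 and 0.417 with the knockout in Cy5 (replicates 1, 4 and 5) and -0.10 and 0.24 with it in Cy3 (replicates 2 and 3). They scattered about 0 without following the dye, all above the 15-day arrays. The fitted ratio was 0.04 (95% interval -0.21 to 0.30, adjusted p = 1.0), and it changed sign when replicate 2 (-0.04) or replicate 5 (-0.02) was left out.

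Blm encodes a helicase that helps to trim break ends and takes joined DNA molecules apart. Its values at 15 days were -0.06, -0.37, -0.06 and -0.03. Replicate 2 alone was away from 0. The mean was -0.13 (95% interval -0.37 to 0.11, limma adjusted p = 0.44). At 12 days the 5 values stayed between -0.14 and 0.046, the narrowest range among the 8 genes at that age, with a fitted ratio of 0.0035 (-0.19 to 0.20).

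Among the crossover genes, Ccnb1ip1 was below 0 at 15 days while Msh4 and Mlh3 did not pass. Ccnb1ip1 encodes a ubiquitin ligase needed for crossovers to form. It read -0.65, -0.41, -0.78 and -0.49 on replicates 1 to 4. All 4 arrays were clearly below 0. The mean was -0.58 ± 0.17 (SD, n = 4), a 1.50-fold ratio (SE 0.11, limma adjusted p = 0.012), and without replicate 3 it was -0.52 and missed the threshold (adjusted p = 0.057). At 12 days only 3 arrays had a value: 0.44 on replicate 3 with the knockout in Cy3, and 0.01 and -0.32 on replicates 4 and 5 with it in Cy5. With so few values the gene was tested neither at 12 days nor for a difference between the ages.

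Msh4, whose product pairs with MSH5 to hold recombining DNA molecules together, read 0.03, -0.02, -0.27 and -0.16 at 15 days. The arrays lay on either side of 0, and the mean of -0.11 (95% interval -0.34 to 0.13, limma adjusted p = 0.52) was the smallest of the 8. Mlh3, which encodes a nuclease subunit needed for most crossovers, read -0.24, 0.12, -0.25 and -0.22. Replicates 1, 3 and 4 lay close together and replicate 2 lay on the other side of 0. The mean was -0.15 (-0.39 to 0.09, adjusted p = 0.38), or -0.24 without replicate 2. At 12 days Msh4 ranged from -0.26 to 0.226 and Mlh3, on 4 arrays, from -0.236 to 0.27, and the fitted ratios were 0.09 (-0.14 to 0.31) and -0.04 (-0.39 to 0.30).

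Meioc acts with the RNA-binding protein YTHDC2 to keep germ cells in meiotic prophase. It read -0.27, -0.72, -0.43 and 0.02 at 15 days. Replicates 1 to 3 were below 0 and replicate 4 was not. The mean was -0.35 ± 0.31 (SD, n = 4; 95% interval -0.64 to -0.06), with an unadjusted p = 0.023 and a limma adjusted p = 0.10. Without replicate 2, the lowest array, it was -0.23 (adjusted p = 0.34), and without replicate 4 it was -0.47 (0.067). Subtracting the median of neighbouring spots moved it to -0.60 and past the threshold (adjusted p = 0.016). At 12 days all 5 arrays were above 0 as deposited, at 0.31, 0.03 and 0.386 with the knockout in Cy5 and 0.07 and 0.31 with it in Cy3. The sign thus stayed the same in both orientations, and the dye coefficient of 0.22 (95% interval -0.01 to 0.44) was the largest in size among the 7 members tested, against a knockout ratio of 0.03 (-0.20 to 0.25). That split rests on the Cy5 over Cy3 reading. If the knockout is always on top, a fit without turning or dye term gives a knockout ratio of 0.22 (SE 0.085). Its limma unadjusted p was 0.033 and its adjusted p 0.52. On the 15-day arrays the dye effect cannot be told apart from the knockout effect, since all 4 have the same orientation.

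**Figure D2:**
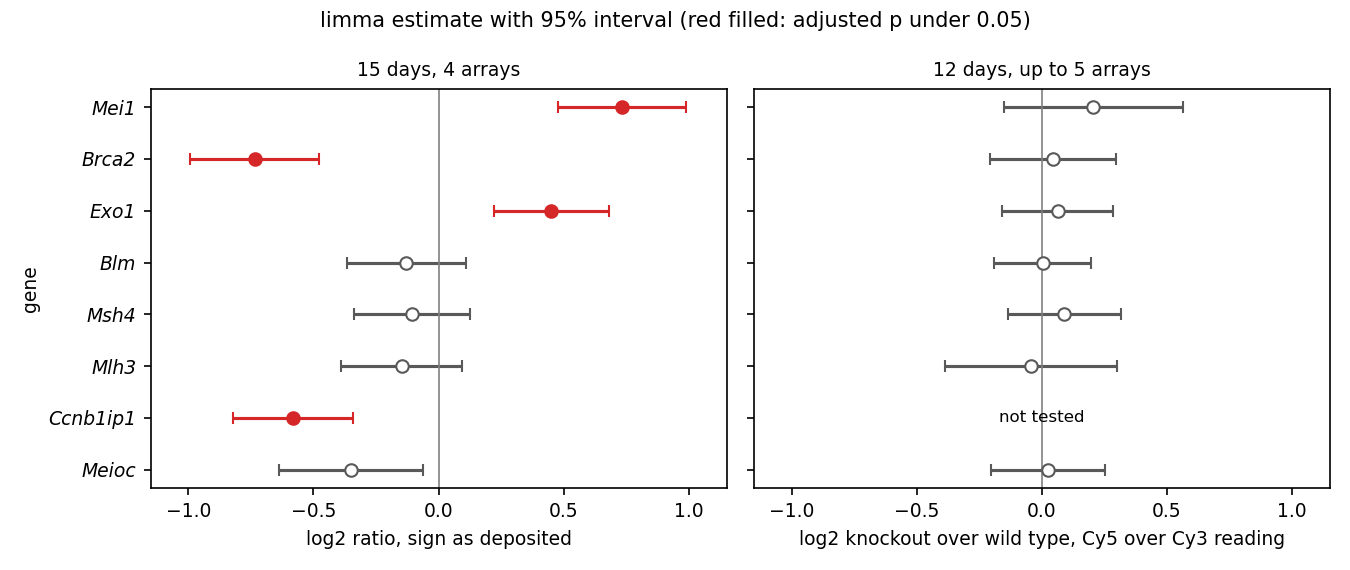
Fitted log2 ratio (horizontal axis) of each of the 8 genes (vertical axis) with its 95% limma interval, at 15 days with the sign as deposited (left) and at 12 days turned to knockout over wild type (right); filled red points passed an adjusted p of 0.05. At 15 days 4 genes passed, and at 12 days every interval includes 0 and Ccnb1ip1 was not tested.

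The 15-day calls depended on how strictly they were made and on the reading of the ratios. With the adjusted p held under 0.01 and a ratio of at least 1.5-fold required, the sizes the design text names, Mei1 and Brca2 passed and 1.98% of all features did. A SAM-type statistic written after the named test, at a 1% false discovery rate and 1.5-fold, passed none of the 8 and 0.844% of features. Mei1 and Brca2 then had an estimated false discovery rate of 0.015 each. Adding a dye term alone, in a joint fit of all 9 arrays under the label reading, kept 3 of 7 (limma adjusted p = 0.037 for Mei1, 0.012 for Brca2 and 0.022 for Exo1) and passed 7.75% of features, with Ccnb1ip1 not tested. With the 15-day sign turned as well, 0 of 7 and 0.173% of features passed, with Mei1 at 0.70 (adjusted p = 0.16) and Brca2 at -0.62 (0.14).

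At 12 days, with arrays turned by the dyes and a dye term, 0 of the 7 genes tested passed with limma, and 0 had an unadjusted p under 0.05. The percentages over all 10075 features were 0 and 2.67. The smallest unadjusted p was that of Mei1, at 0.21. The 7 fitted ratios lay between -0.04 (Mlh3) and 0.21 (Mei1), 6 of them above 0, and their median was 0.04, against -0.01 over all features.

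Whether a ratio differed between the ages was asked in a fit of all 9 arrays that had 1 dye coefficient for both ages. In effect, the mean of the 4 older arrays is set against that of replicates 2 and 3 at 12 days, which have the same orientation. Values are differences in log2 knockout over wild type, 15 days minus 12 days. Under the label reading 0 of 7 genes passed with limma, and 2.5% of all 9851 features did. At an unadjusted p under 0.05 there were 4 of 7, against 20.4% of features. Mei1 was closest to the threshold, at -0.97 (SE 0.23, adjusted p = 0.057), followed by Brca2 at 0.805 (SE 0.20, adjusted p = 0.061), Exo1 at -0.675 (SE 0.17, adjusted p = 0.062) and Meioc at 0.54 (SE 0.21, adjusted p = 0.18). Mei1, Brca2 and Exo1 all passed when arrays were scaled or quantile normalized, or when 12-day replicate 5 was left out, with adjusted p from 0.014 to 0.0497. More features of all kinds passed there too. From 246 of 9851, their number rose to 532 with scaled arrays, 807 with quantile normalization and 468 of 9920 without replicate 5. Blm (0.08), Msh4 (0.04) and Mlh3 (0.26) had intervals that include 0.

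With the sign of the 15-day arrays turned, limma again passed 0 of 7 genes and 0% of features, and at an unadjusted p under 0.05 it gave 1 of 7, against 6.52% of features. That gene was Brca2, at -0.665 (95% interval -1.10 to -0.23, adjusted p = 0.74). Mei1 lay at 0.50 (-0.01 to 1.01) and Exo1 at 0.23 (-0.15 to 0.60). All 7 differences changed sign between the readings. As deposited, before any turning, the values of the 2 ages did not overlap for Mei1, Exo1, Brca2 and Meioc, 4 of the 7 genes, and for 14.8% of features. The gap was narrowest for Meioc, whose highest 15-day value was 0.02 and whose lowest 12-day value was 0.03.

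**Figure D3:**
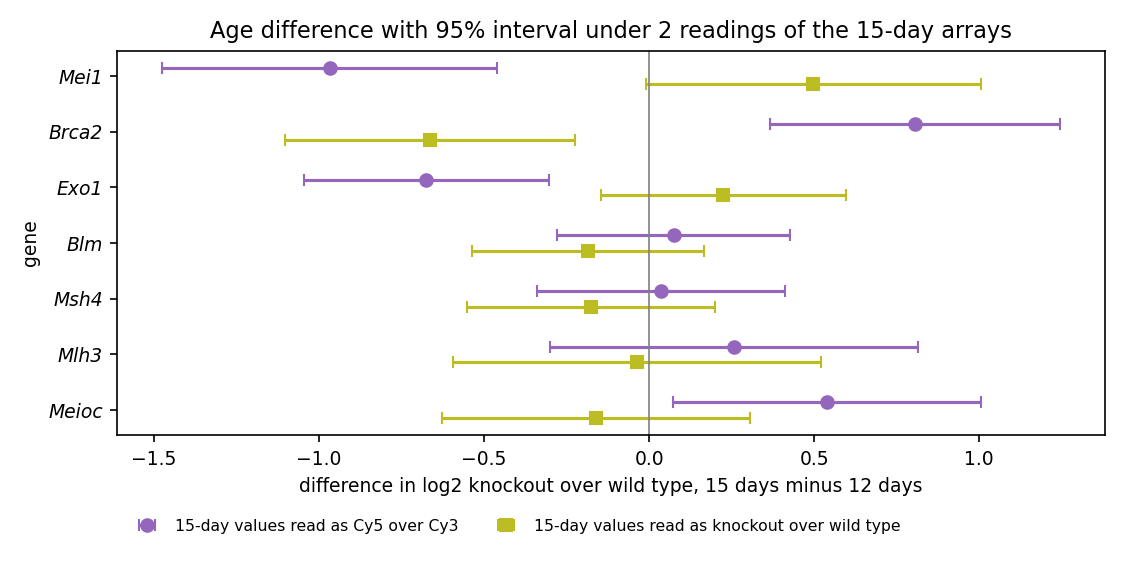
Difference in log2 knockout over wild type between 15 and 12 days (horizontal axis) for the 7 genes tested (vertical axis), with 95% limma intervals; circles read the 15-day values as Cy5 over Cy3 and squares as knockout over wild type. Mei1 lies at -0.97 under the first reading and 0.50 under the second, Brca2 at 0.805 and -0.665.

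Other genes of these processes were listed by function, leaving out the 8. Of 117 listed, 50 had a probe, and at 15 days 1 passed the threshold above 0 and 8 passed below it, with a median of -0.09 over the 50. Over all features at that age, 7.05% passed above and 5.37% below 0. Among 24 genes of break-end processing and homologous repair, 1 passed above 0 and 4 below. The strand exchange partners Mnd1 (2.42, SE 0.21, limma adjusted p = 0.00061) and Psmc3ip (-1.25, SE 0.11, adjusted p = 0.00061) lay at the extremes, on opposite sides. Hsf2bp, whose product brings BRCA2 to meiotic breaks, lay below 0 together with Brca2. It read -0.20, -0.61, -0.63 and -0.44, a mean of -0.47 (SE 0.11, adjusted p = 0.029). The DNA translocase gene Rad54b lay at -0.435 (adjusted p = 0.026) with arrays from -0.56 to -0.36. Swi5, a homologous repair gene, lay at -0.505 (adjusted p = 0.046) with replicate 4 at -0.02, and its partner Sfr1 at 0.01 (adjusted p = 0.97).

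Of 9 other crossover genes, Eme1, which encodes a partner of the nuclease MUS81, passed below 0 at -0.40 (SE 0.10, limma adjusted p = 0.037) and none passed above, with a median of 0.03. Mus81 itself read -0.24 (adjusted p = 0.18) and Pms2, a paralog of Mlh3, 0.15 (adjusted p = 0.39). Of 12 genes of the synaptonemal complex, which joins the homologs, and of meiotic cohesin, 3 passed below 0 and none above, with a median of -0.12. These were Syce1 (-0.665, adjusted p = 0.012) and Sycp1 (-0.48, 0.021), both of the central part of the complex, and Sun1 (-0.41, 0.041), of the nuclear envelope. Of break formation Cxxc1 alone was measured, at 0.27 (adjusted p = 0.12), and of 4 other genes of meiotic entry none passed in either direction. The smallest adjusted p among those 4 was 0.25. At 12 days none of 46 genes and 0 of all 10075 features passed, and the median of the 46 was 0.02. The highest of these 12-day ratios was that of Mnd1, at 1.48 (SE 0.18, limma adjusted p = 0.59), above 0 like its 15-day ratio as deposited. For the difference between the ages under the label reading, 3 of 46 passed, against 2.5% of all 9851 features. These were Psmc3ip (1.61) and Syce1 (0.92) above 0, and Mnd1 (-3.64) below. With the sign turned none passed.

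**Figure D4:**
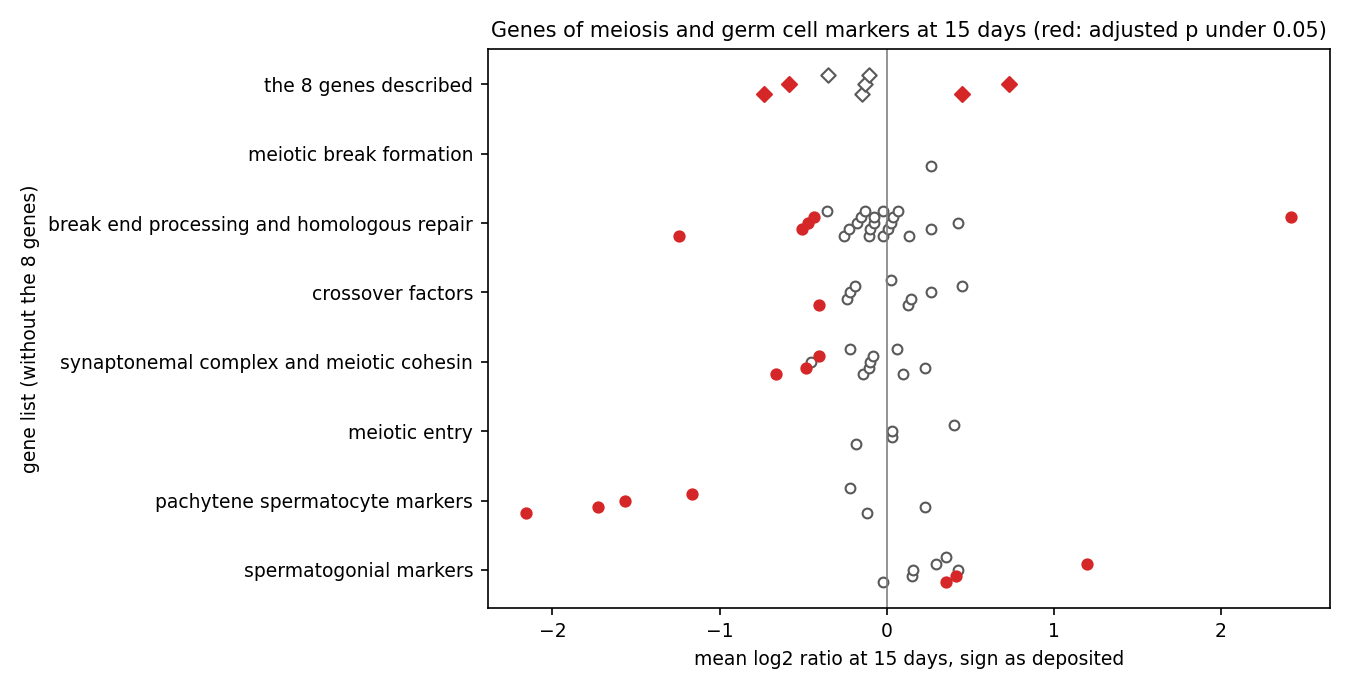
Mean log2 ratio at 15 days, sign as deposited (horizontal axis), of the 8 genes (diamonds) and of other genes by list (circles, vertical axis), filled red where the adjusted p was under 0.05. The pachytene markers reach -2.16 and the spermatogonial markers 1.20, and the recombination genes lie between them except Mnd1 at 2.42.

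Some markers of germ cell stages also differed from 0 at 15 days. The marker lists were drawn up with earlier results of these data known, so their medians are descriptions only. Of 7 pachytene markers measured, 4 passed below 0 and none above, with a median of -1.16. Rsph1 (-1.73), Lyar (-1.56) and Slc2a3 (-2.16) had the smallest p. The 3 that did not pass were Ovol1 (-0.22), Mybl1 (-0.12) and Sycp3 (0.23), the last also counted in the synaptonemal list. Of 9 spermatogonial markers, those of the germ cells before meiosis, 3 passed above 0 and none below, with a median of 0.35 (Etv5 at 1.20, Ccnd1 at 0.415 and Uchl1 at 0.36). These 2 medians lie on opposite sides of 0, so each member necessarily has the sign of 1 of them. At 12 days the pachytene median was -0.25, with 4 genes below 0 and 2 above. The spermatogonial median was then -0.03, with 6 genes below 0 and 3 above, and no gene of either list passed. The part of cell composition in the members' ratios was not tested. Of the somatic lists, 0 of 9 Sertoli cell genes passed (median -0.01). Of 7 Leydig cell genes 1 passed above 0, of 12 peritubular and fibroblast genes 2 passed above and 1 below, of 5 macrophage genes 1 passed below, of 5 endothelial and blood genes 1 passed above, and the 1 spermatid gene measured, Txndc2, passed above 0. These counts stand beside 7.05% of all features above and 5.37% below 0 at 15 days.

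The genes most like each member were found by the uncentred correlation of the 9 log ratios, a measure that stays the same if whole arrays are turned. It was computed over the 5 members and the other genes with values on all 9 arrays, 5380 for each member. These are descriptions, chosen as the highest of many, and the 2 ratios of a pair come from the same 9 hybridisations. Closest to Brca2 were D1Pas1 (0.98), a testis RNA helicase gene that read -0.96, -1.32, -1.51 and -0.67 at 15 days, then Acot7 (0.98) and Eif5 (0.98). Closest to Exo1 were Chd6 (0.98), Actn3 (0.94) and Xlr3c (0.93), and closest to Meioc were Haus4 (0.97) and 2 DNA synthesis genes, Mcm7 (0.96) and Polb (0.96). Blm was nearest to Grk5 (0.93), Dnajc13 (0.91) and Rfc3 (0.91), and Msh4 to Ddx5 (0.92), Mvd (0.91) and Ifi30 (0.88). Among the members themselves Brca2 and Meioc were the most alike (0.86) and Brca2 and Exo1 the most opposed (-0.84).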

How the data were processed

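Testis RNA of Spo11 knockout and wild-type mice was hybridised to 9 two-colour arrays. The deposited values are log ratios, read as log2, which the authors centred on each array's median after scanning and flagging spots with GenePix, per the labels' design text. The log base, background correction and direction are not given in any label. Precision is limited by how many arrays there were. An array held values for 72.1% to 91.3% of probes.

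The platform annotation (of 2007) gave 1 gene for 9604 probes, several for 213 and none for 6311, and 98.9% of the first were matched by Entrez ID to RefSeq symbols (GRCm38.p6). Probes of a gene were averaged, and other probes stayed features of their own. The test was that of limma 3.58.1, run in R 4.3.3 (lmFit, eBayes, two-sided, Benjamini-Hochberg over all features) on features with at least 3 values at 15 days and 4, with both orientations, at 12 days. At 12 days the fit had a knockout and a dye coefficient. The fits were tried on simulated arrays with independent noise and planted changes larger than any member's ratio. That checks the code and does not bear on power or false calls at the members' ratios. The members, gene lists, tests and alternatives were chosen with earlier results of these data known. All 8 members are named, of other meiotic genes mainly those past the threshold, with a few others named after their values were seen, and of marker lists up to 3 of smallest p.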

Additional observations from a re-analysis of the deposited data

Results flagged for a closer look

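Of 15 sets of 4 or 5 values, each a member at an age, 3 held an array that stood apart from the rest, where chance gives about 1 in 20. All were at 15 days. Mei1 read 1.07 on replicate 3, against 0.63 on the next array. Blm read -0.37 on replicate 2, against -0.06 on the next. Mlh3 read 0.12 on replicate 2, against -0.22 on the next.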

How the results depend on the processing

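Each ratio already pairs a knockout with a wild-type sample on 1 array. No paired analysis was possible because, beyond this, the labels give the arrays no replicate numbers to link them. At 15 days 4 members and 1515 of 12198 features passed. With 1 array left out from 2 members (without replicate 3, with 357 of 12256 features) to 4 (without replicate 1, with 711 of 12409) passed. The number of members was 2 at an adjusted p under 0.01 and 1.5-fold, and 0 by the SAM-type statistic. It was 3 of 7 in the joint fit with dye, and 0 of 7 when the 15-day sign was turned as well. With neighbouring spots subtracted it was again 4, with Meioc in place of Exo1, and 1852 of 12198 features passed. No member's 15-day ratio changed sign under any alternative run. All these ratios were given in the deposited sign, so the turning of the 15-day arrays could not itself reverse them. At 12 days 0 members passed under every alternative run, and so did 0 features of any kind. The signs of these small ratios were not stable. Without turning and without a dye term Mei1 lay at -0.03, Exo1 at -0.15, Blm at -0.051 and Mlh3 at 0.046. Meioc kept its sign there, at 0.22 (limma unadjusted p = 0.033, adjusted p = 0.52). With scaled arrays Brca2 lay at -0.0054 and Meioc at -0.040, with quantile normalization Meioc at -0.017, and with neighbouring spots subtracted Blm at -0.013, Mlh3 at 0.018 and Meioc at -0.069. Blm was -0.0068 without a dye term, and with the range of array title numbers as a block Blm was -0.0063 and Mlh3 0.08. With 1 array left out Mei1 ranged from 0.06 to 0.35, Exo1 from 0.01 to 0.11, Brca2 from -0.0405 to 0.13, Blm from -0.02 to 0.0265, Msh4 from -0.0057 to 0.18, Mlh3 from -0.10 to 0.0225 and Meioc from -0.034 to 0.086. For the age difference under the label reading 0 members and 246 of 9851 features passed. Scaled arrays passed 3 members (532 features), quantile normalization 3 (807) and arrays centred on their mean 1 (Brca2, with 303 features). Single probes passed 1 (the first of Exo1, with 324 of 11686 features) and subtracting neighbouring spots 1 (Meioc, with 489 of 9851). With 1 array left out from 0 to 3 members passed, and from 5 to 468 features. Msh4 changed sign with scaled arrays (-0.054) and quantile normalization (-0.0545), and ranged from -0.16 to 0.23 with 1 array left out, as Blm did from -0.0050 to 0.12. Turning the 15-day sign gave 0.50 for Mei1, -0.665 for Brca2, 0.23 for Exo1, -0.19 for Blm, -0.18 for Msh4, -0.0375 for Mlh3 and -0.16 for Meioc. The cause of these changes was not tested.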

Other observations

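At 15 days 7 genes of the meiotic and marker lists, of germ cells and of somatic cells, were split by array in the same way, a pattern chosen after its values were seen. Of these, Cdh5 alone passed the threshold. Dazl, an RNA-binding regulator of germ cells, read -0.22, -0.26, 1.43 and 0.67 on replicates 1 to 4, Rad52, of homologous repair, -0.11, -0.14, 1.27 and 0.68, Sycp3, of the axis of meiotic chromosomes, -0.11, -0.24, 0.87 and 0.40, and Tex12, of the synaptonemal complex, -0.54, -0.98, 1.12 and 0.01. Among somatic markers Wt1, of Sertoli cells, read -0.06, -0.07, 1.35 and 0.63, Cdh5, of endothelium, 0.32, 0.32, 1.2 and 1.29, and C1qa, of macrophages, -0.19, -0.04, 0.52 and 0.61. Over all 13581 probes with 4 values, replicates 3 and 4 both exceeded replicates 1 and 2 by more than 0.5 in 248, and the opposite held in 62. Of the 248 probes, 95.6% had another of them within 50 spots in probe order, against 26.8% of all probes with 4 values. The cause was not tested.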
